A study of Mus musculus with 48 samples.

Results

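The genes described are the mitochondrial carriers of the Slc25a family, taken as every gene whose mouse symbol is Slc25a followed by a number. There were 47 such members among 54331 genes in 48 mouse RNA sequencing libraries. The libraries were made to follow RNA from retinal ganglion cells, the neurons that send axons out of the retina to 2 brain targets, the lateral geniculate nucleus (LGN) and the superior colliculus (SC). In EU libraries the RNA was captured through ethynyl uridine, a label for newly made RNA given into the eye. Axon-TRAP libraries hold RNA purified with tagged ribosomes. Wild-type SC gave EU libraries at P10 (n = 3), P14 (n = 5) and 8 weeks (n = 3), EU libraries at P10 with a 4-day chase (n = 3), and TRAP libraries at P10 (n = 3) and P14 (n = 5). Wild-type LGN at P14 gave 2 EU and 3 TRAP libraries. The label fmr1ko marked P14 SC EU (n = 3), P14 SC TRAP (n = 3) and FACS-sorted P14 eye cells (n = 3). The label sarm1ko marked axotomized P14 mice whose SC EU libraries followed a chase of 7 days (n = 3). Wild-type eye cells at P14 were immunopanned (n = 3), immunopanned with EU capture (n = 3) or FACS-sorted (n = 3). The EU protocol pooled colliculi of several animals, and the driver of the tagged ribosomes is not given in the sources used here.

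Carriers of this family sit mostly in the inner mitochondrial membrane and exchange metabolites, nucleotides, phosphate, amino acids and cofactors between the cytosol and the matrix. They are encoded in the nucleus, made on cytosolic ribosomes and threaded into the membrane by the Tom and Tim complexes. In neurons they set the supply of ADP and phosphate to ATP synthase, the malate-aspartate shuttle and the import of glutamate, and some respond to calcium. Axon terminals hold many mitochondria far from the nucleus, so carrier mRNA in axons is of interest to work on local translation.

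Library totals ran from 2558141 to 48263706 estimated counts. FACS-sorted eye libraries carried strong rod photoreceptor signal: 10 rod markers summed to 56614 to 96570 TPM (a length-scaled share of a library's transcripts) in wild-type FACS libraries, against 27.6 to 67.2 TPM for 10 retinal ganglion cell markers, of which Pou4f2 was at 0. In SC EU libraries of P14 the rod markers summed to 0.492 to 17.6 TPM, 9 astrocyte markers to 1936 to 3472 TPM and 8 oligodendrocyte markers to 6297 to 10445 TPM, so RNA of resident SC cells was present. In SC TRAP libraries of P14 the astrocyte markers summed to 2170 to 4585 TPM. In these bulk libraries fewer cells of a type and less RNA per cell cannot be told apart. The targeted genes did not separate the genotypes: Fmr1 was at 2.27 to 15.4 TPM under the fmr1ko label in SC EU libraries and 0 to 6.99 TPM in wild type, and Sarm1 at 0.795 to 7.63 TPM under the sarm1ko label and 4.80 to 39.6 TPM in wild type. The part of each gene removed by the knockout is not given in the sources used here, so these levels do not check the labels. Fmr1 and sarm1 comparisons below are therefore between libraries so labelled. Replicate 1 of the immunopanned total RNA stood apart (mean correlation 0.160 with its group). In replicates 2 and 3 lens crystallins made 30.15% and 33.02% of counts. No immunopanned total library enters a comparison, but all of them enter the group means.

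The 250 bases upstream of the start are shown for Slc25a23, Slc25a1 and Slc25a18, the 3 members with a call that held in every alternative analysis of at least 1 comparison. They come from RefSeq on GRCm38.p6, 5′ to 3′ on the gene's strand, with capitals marking a match to the E-box letters CACGTG. A RefSeq start window was present for 36 of the 47 members.
Slc25a23, chr17:57059864-57060113, minus strand: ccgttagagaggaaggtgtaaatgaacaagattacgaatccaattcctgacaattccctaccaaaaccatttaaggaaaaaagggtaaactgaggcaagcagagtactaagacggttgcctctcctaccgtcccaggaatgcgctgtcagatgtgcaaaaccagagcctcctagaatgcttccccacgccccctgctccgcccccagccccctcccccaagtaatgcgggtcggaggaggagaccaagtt
Slc25a1, chr16:17928220-17928469, minus strand: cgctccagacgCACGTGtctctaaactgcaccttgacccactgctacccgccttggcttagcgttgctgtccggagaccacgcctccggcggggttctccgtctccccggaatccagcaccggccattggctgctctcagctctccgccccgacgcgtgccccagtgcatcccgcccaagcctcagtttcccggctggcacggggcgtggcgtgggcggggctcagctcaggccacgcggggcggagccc
Slc25a18, chr6:120773518-120773767, plus strand: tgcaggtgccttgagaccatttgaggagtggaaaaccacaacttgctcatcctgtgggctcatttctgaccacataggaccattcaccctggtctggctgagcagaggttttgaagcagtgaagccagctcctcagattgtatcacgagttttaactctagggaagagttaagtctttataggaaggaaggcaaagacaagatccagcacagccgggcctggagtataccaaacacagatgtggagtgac
Slc25a1 has a GC-rich start (70.0% G or C, 25 CG dinucleotides), whereas the Slc25a18 start has 48.8% and 2. The Slc25a23 start shown lies between them with 52.4% and 9, and another RefSeq start of Slc25a23, not shown, has 55.2% and 12. The median over 46 member windows was 57.4% and 12, and over all 32851 windows 52.4% and 6. The E-box letters, which read the same on both strands, were in windows of 7 members (Slc25a1, Slc25a13, Slc25a14, Slc25a15, Slc25a31, Slc25a33 and Slc25a36), or 8 of 46 member windows, and in 7.15% of all windows of 300 bases. The letters TCAAGGTCA, a site of estrogen-related receptors, were in 0 member windows on either strand and in 0.423% of all windows. The palindromic site of NRF1, a regulator of mitochondrial genes, was in 0 member windows and in 0.971% of all windows. The ETS letters CCGGAAGT, also read on both strands, were in a window of Slc25a20 and in 3.89% of all windows.

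Slc25a4 and Slc25a5, the ADP/ATP translocases, and Slc25a3, the phosphate carrier, held most of the family's RNA. The mean of the 15 group means was 796.0 TPM for Slc25a4, 767.5 TPM for Slc25a5 and 688.1 TPM for Slc25a3, followed by Slc25a11 (140.6 TPM), the oxoglutarate/malate carrier. Together the first 3 made 55.6% to 93.0% of the family's TPM in 47 libraries and 6.73% in immunopanned total replicate 1. Next came the glutathione carrier Slc25a39 (111.2 TPM), the glutamate carrier Slc25a18 (95.4 TPM), the citrate carrier Slc25a1 (81.0 TPM), the pyrimidine nucleotide carrier Slc25a33 (78.0 TPM) and the iron carrier Slc25a28, mitoferrin 2 (59.4 TPM). In all, 26 members had means above 10 TPM, 14 lay between 1 and 10 TPM and 7 lay below 1 TPM. Counts were present in every library for 17 members, and in 3 of 48 libraries for Slc25a54, 11 for Slc25a41, 17 for the germline translocase Slc25a31, 23 for Slc25a48 and 24 for Slc25a2.

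The summed family was 4487 ± 814 TPM in SC EU libraries of P14 (SD, n = 5) and 4855 ± 565 TPM in SC TRAP libraries of P14 (SD, n = 5). At P10 it was 2769 ± 226 TPM in EU and 3546 ± 1071 TPM in TRAP libraries (SD, n = 3 each). FACS-sorted wild-type eye cells had 4159 ± 186 TPM, immunopanned EU libraries 1123, 1302 and 5063 TPM, and axotomized sarm1ko libraries 538, 842 and 2325 TPM. The sarm1ko values fell below all 5 wild-type P14 EU libraries (3245 to 5297 TPM). CT010467.1, a ribosomal RNA gene, took 21.9% to 39.4% of the TPM of those 3 libraries and 0.0929% to 29.6% in the 5 wild-type ones. Its part in the difference was not tested.

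The translocases had unlike orders across tissues. Slc25a4 had 964.9, 1173, 1301, 1550 and 1842 TPM in the 5 P14 SC EU libraries against 637.7, 722.1, 857.1, 867.5 and 1208 TPM for Slc25a5, and Slc25a4 was the higher of the pair in each of them. In wild-type FACS eye cells Slc25a5 had 1258, 1353 and 1735 TPM against 435.3, 584.9 and 608.8 TPM for Slc25a4, the opposite order in each library. Over the 15 group means, the members most like Slc25a4 were Slc25a12, the aspartate/glutamate carrier (Pearson r = 0.94), Slc25a39 (r = 0.91) and the carnitine carrier Slc25a20 (r = 0.85), among 45 members compared. These points share libraries and depth, and the values are a description.

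The most abundant dicarboxylate carrier, Slc25a11, had 94.2, 121.5, 139.8, 212.8 and 269.8 TPM in P14 SC EU libraries and 233.3, 254.9 and 386.8 TPM in wild-type FACS eye cells, with overlap between the groups. Slc25a35, the most abundant member with an unsettled substrate, had 4.73, 7.00, 8.19, 9.21 and 11.45 TPM in P14 SC EU libraries and 39.4, 58.4 and 69.6 TPM in those eye cells, with no overlap. No test was fitted between these groups. Rangrf overlaps Slc25a35 on the other strand, with a mean of 51.8 TPM in SC EU and 125.0 TPM in eye libraries.

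**Figure D1:**
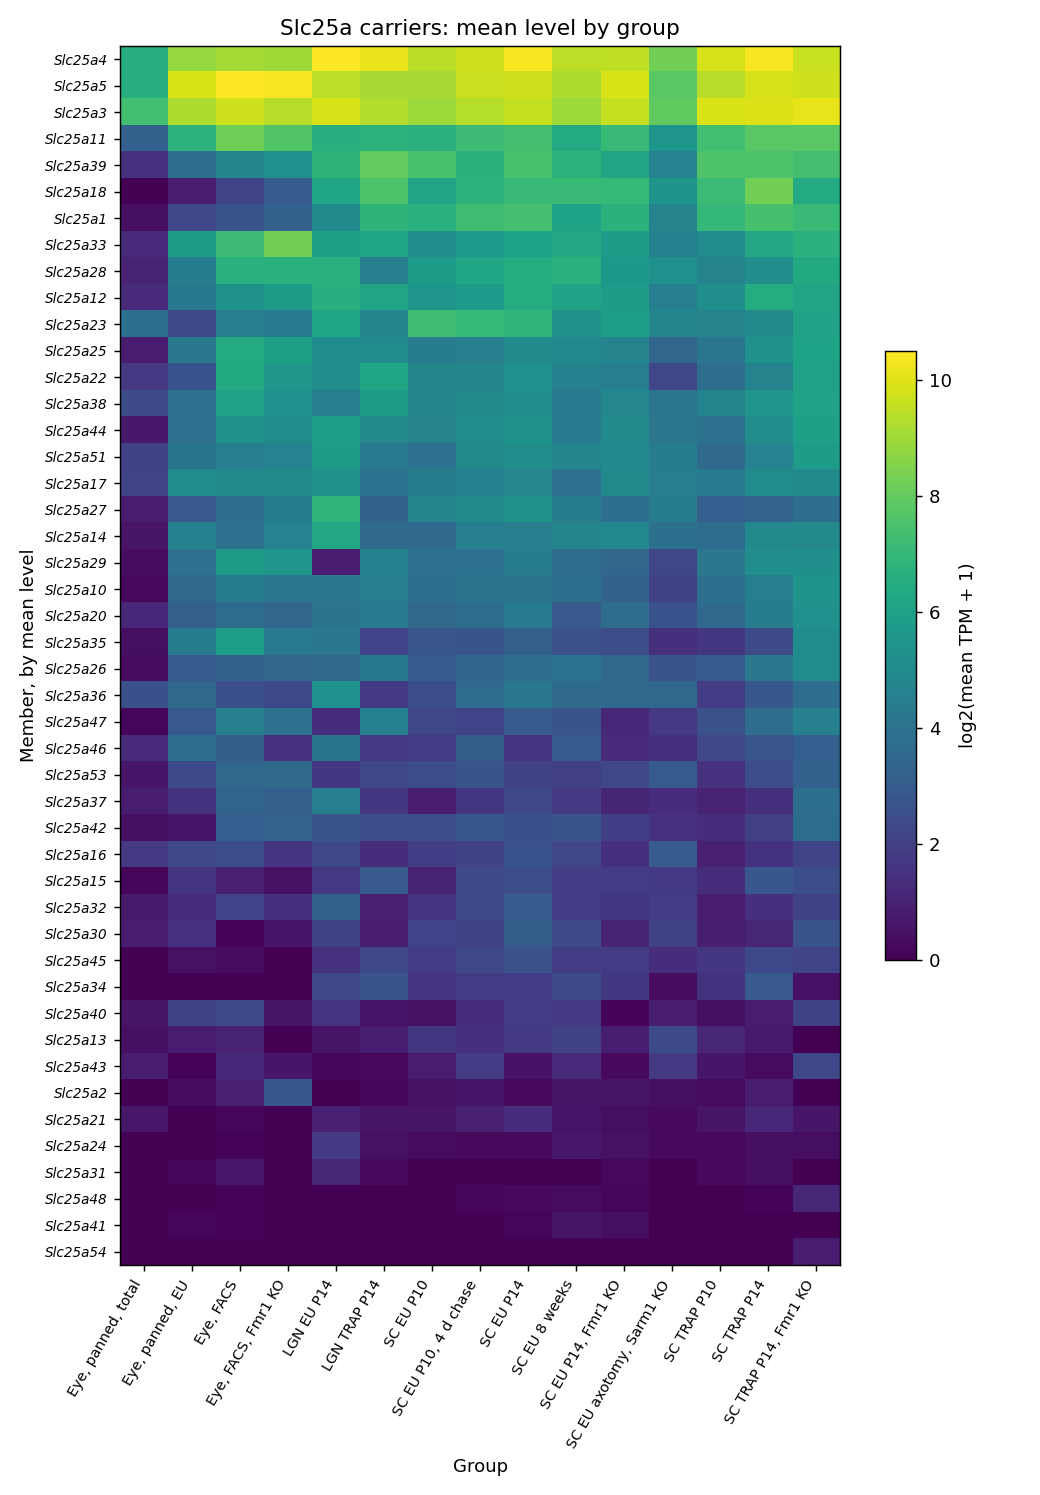
Mean level of the members (rows, ordered by mean level) in each of the 15 groups (columns), coloured by log2 of the mean TPM plus 1. Slc25a4, Slc25a5 and Slc25a3 fill the top rows in every group, and Slc25a34 is at 0 in the 4 eye columns at the left.

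SC EU libraries of P14 were compared with immunopanned EU libraries of the eye (replicates 3 to 5 against 3 libraries) to ask which labelled RNAs differ between axon targets and cell bodies. Slc25a1, Slc25a18, Slc25a23, Slc25a39, Slc25a34 and Slc25a22 were higher in SC, and Slc25a46, an outer membrane member tied to mitochondrial shape, was lower. These were 7 of 39 members tested, or 17.9%, while 22.4% of all 15540 tested genes were called (11% higher and 11.4% lower). The median log2 fold change was 0.03 over members and 0.11 over all genes. The main translocases were not called: Slc25a4 had 1013, 1212 and 1219 normalised CPM (normalised read count as a share of the library) in SC and 938.7, 1017 and 1118 CPM in the eye, a log2 fold change of 0.16 ± 0.45 (SE, adjusted p = 0.83 by edgeR's quasi-likelihood test).

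Slc25a1 exports citrate for lipid and acetyl-CoA supply. It had 102.6, 169.6 and 184 CPM in SC and 4.98, 5.55 and 6.49 CPM in the eye, groups far apart (log2 fold change 4.74 ± 0.58, edgeR adjusted p = 0.0024). The groups did not overlap, as for 46.8% of all genes. Slc25a18, a glutamate carrier known for high expression in astrocytes, had 111.9, 160.6 and 209.9 CPM in SC and 0, 2.04 and 2.26 CPM in the eye (6.79 ± 1.26, edgeR adjusted p = 0.0082). Atp6v1e1 overlaps Slc25a18 on the other strand, with a mean of 492.5 TPM in SC EU libraries and 177.1 TPM in the eye, and the strand setting is not given in the sources used here, so reads in the overlap cannot be told apart. Slc25a23, a calcium-stimulated carrier that trades ATP-Mg for phosphate, had 137.9, 181.3 and 249.6 CPM in SC and 9.24, 12.7 and 25.9 CPM in the eye (3.57 ± 0.61, edgeR adjusted p = 0.0062). The calls of these 3 members held in all 12 alternatives.

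Slc25a39 had 92.2, 150.7 and 221.3 CPM in SC and 17.6, 18.4 and 33.7 CPM in the eye (log2 fold change 2.74 ± 0.58, edgeR adjusted p = 0.013). The glutamate carrier Slc25a22 had 53.6, 57.6 and 86.3 CPM against 4.04, 8.04 and 23.5 CPM (2.47 ± 0.78, edgeR adjusted p = 0.049), and its call was lost in 6 of 12 alternatives. Slc25a34, whose substrate is unsettled, had 4.26, 7.12 and 7.32 CPM in SC and 0 in each immunopanned EU library. It was thus at least 117.6-fold higher in these SC libraries against a floor of 3 counts over the eye group. P14 SC EU replicates 1 and 2, outside this comparison and scaled with LGN libraries, had less of it, 0.413 and 0.491 CPM. Slc25a34 was also at 0 in the other 9 eye libraries and above 0 in 35 of 36 brain libraries. Slc25a46 had 0.511, 4.96 and 6.22 CPM in SC and 39.5, 85.3 and 112.8 CPM in the eye (-4.34 ± 0.99, edgeR adjusted p = 0.017).

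Cell type markers moved with these calls: 3 of 9 astrocyte and 8 of 8 oligodendrocyte markers were called higher in SC, and 10 of 10 rod markers lower. The astrocyte sum was 565 to 584 TPM in immunopanned EU libraries, with Fgfr3 at 0, and the oligodendrocyte sum 10.1 to 30.4 TPM, with Mobp, Mag, Opalin and Mog at 0. The rod sum there was 2972, 5211 and 65336 TPM. The part of these cells in the carrier differences was not tested. Mitochondrially encoded genes made 7.89%, 55.2% and 46.5% of counts in immunopanned EU replicates 1, 2 and 3. In SC EU replicates 3 to 5 they made 0.407% to 1.76%, and the part of this gap was not tested. Without immunopanned EU replicate 1, 12 members were called; without SC EU replicate 3 there were 3, and without replicate 4 there were 4. In TPM the median gene was 1.01 higher in SC on the log2(TPM + 1) scale, against 0.11 in normalised counts, and 11 members were then called higher and 1 lower.

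**Figure D2:**
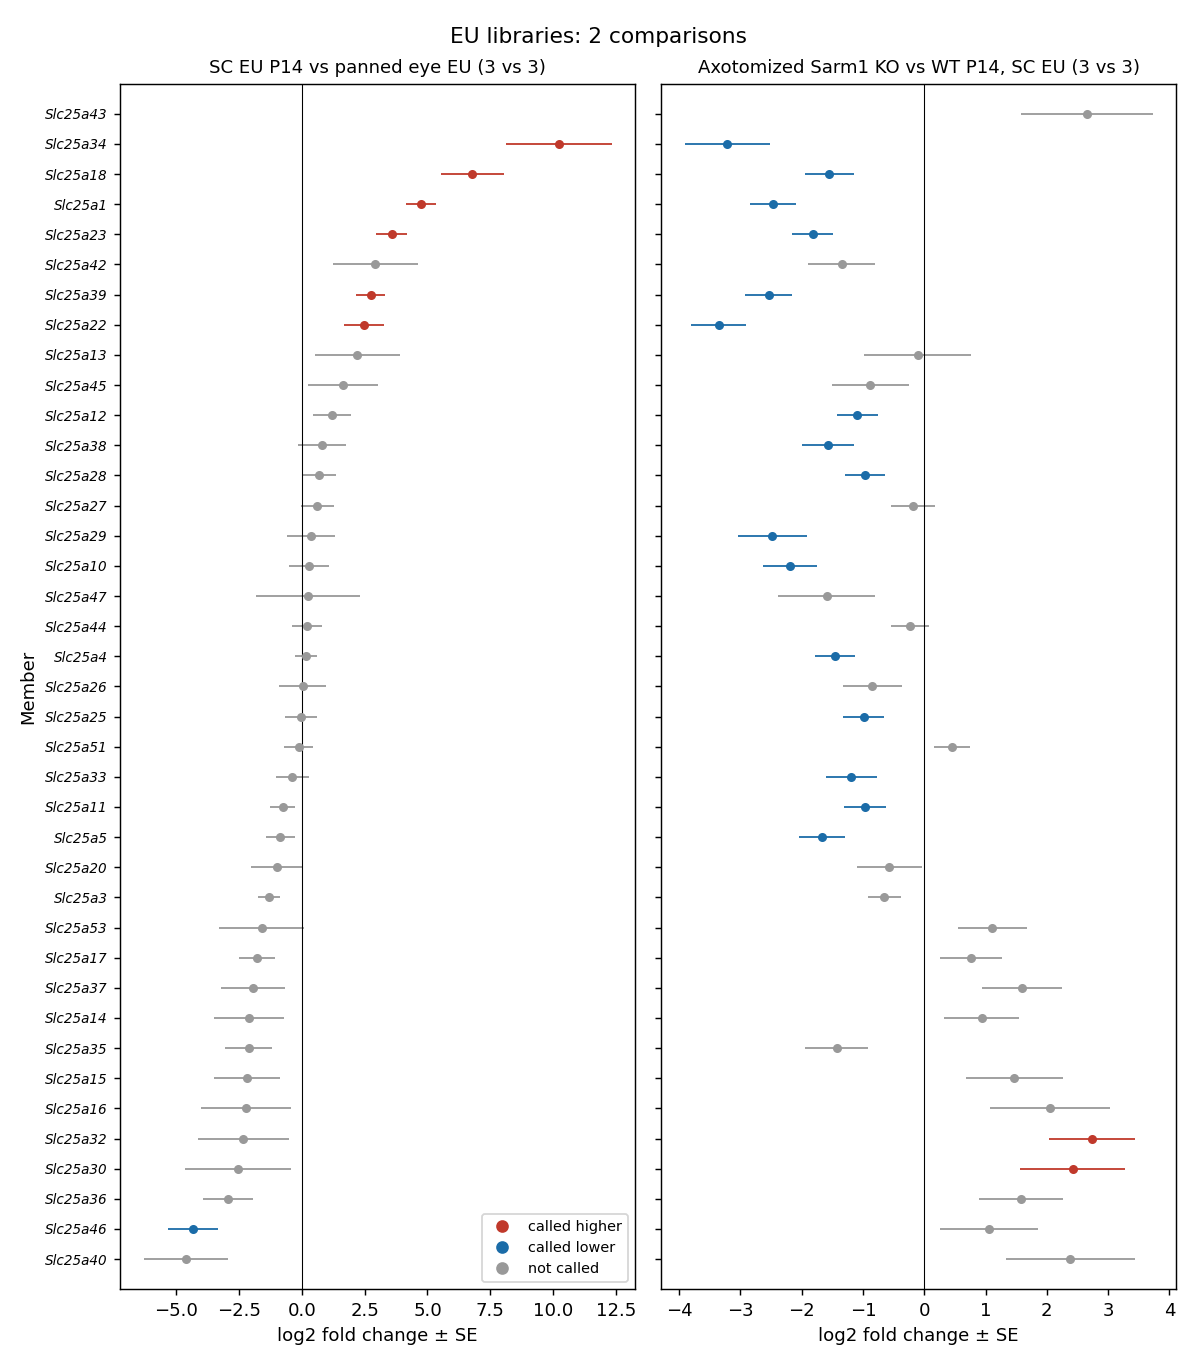
Log2 fold change (points) with its SE (bars) for tested members, in P14 SC EU against immunopanned eye EU libraries (left) and axotomized sarm1ko against wild-type P14 SC EU libraries (right). Red points were called higher, blue lower and grey not called, with 6 red points and 1 blue at left and most of the called points at right below 0.

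TRAP libraries of SC were compared with EU libraries of the same age, which sets ribosome-bound RNA against labelled RNA. At P14 (replicates 3 to 5 of each) 43 members were tested, 1 was called higher (Slc25a2) and 4 lower (Slc25a23, Slc25a22, Slc25a28 and Slc25a27), 11.6% of members beside 14.4% of all genes (5.73% higher and 8.64% lower). At P10, 40 members were tested, 2 were called higher (Slc25a18 and Slc25a3) and 1 lower (Slc25a23), 7.5% beside 17.4% of all genes (6.38% higher and 11.1% lower). Slc25a23 was the member called lower in TRAP libraries at both ages. The median log2 fold change of members was 0.09 at P14 and 0.17 at P10, with -0.01 and -0.08 over all genes.

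At P14 Slc25a23 had 16.8, 30.3 and 41.9 CPM in TRAP and 192.3, 263.4 and 367.0 CPM in EU libraries. The groups were far apart, with a log2 fold change of -3.21 ± 0.44 (SE, edgeR adjusted p = 0.0035). At P10 it had 38.2, 55.3 and 77.6 CPM in TRAP and 300.6, 301.2 and 422.1 CPM in EU libraries (-2.58 ± 0.39, edgeR adjusted p = 0.0037). Both calls held in every alternative run, 13 at P14 and 12 at P10, with log2 fold changes from -3.50 to -2.19 and from -2.85 to -2.20. The change in the TRAP to EU ratio from P10 to P14 was -0.67 ± 0.56 for this gene (interaction term, edgeR adjusted p = 0.67). Crb3, which overlaps it on the other strand, averaged 2.32 TPM in SC EU and 3.41 TPM in SC TRAP libraries. The neighbouring paralog Slc25a41, 2056 bases away on the same strand, had counts in 11 libraries.

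In LGN at P14 Slc25a23 had 43.9, 79.1 and 86.3 CPM in TRAP and 60.5 and 93.5 CPM in EU libraries, and the groups overlapped (log2 fold change -0.14 ± 0.67, edgeR adjusted p = 0.92). In TPM it had 24.5, 26.6 and 31.7 in LGN TRAP against 48.2 and 94.8 in LGN EU libraries, with no overlap, on a scale where the median gene was 0.84 lower in TRAP. Whether the TRAP to EU ratio of this gene differs between SC and LGN was not tested. No member was called in LGN by edgeR (0 of 41, beside 1.4% of all genes, 0.235% higher and 1.17% lower). An unadjusted edgeR p under 0.05 was reached by 9 members, beside 4545 of 16561 genes, and DESeq2 called 9 members. The smallest adjusted p in LGN was that of Slc25a1, with 135.9, 138.0 and 164.2 CPM in TRAP and 15.4 and 26.0 CPM in EU libraries (2.82 ± 0.70, edgeR adjusted p = 0.061).

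**Figure D3:**
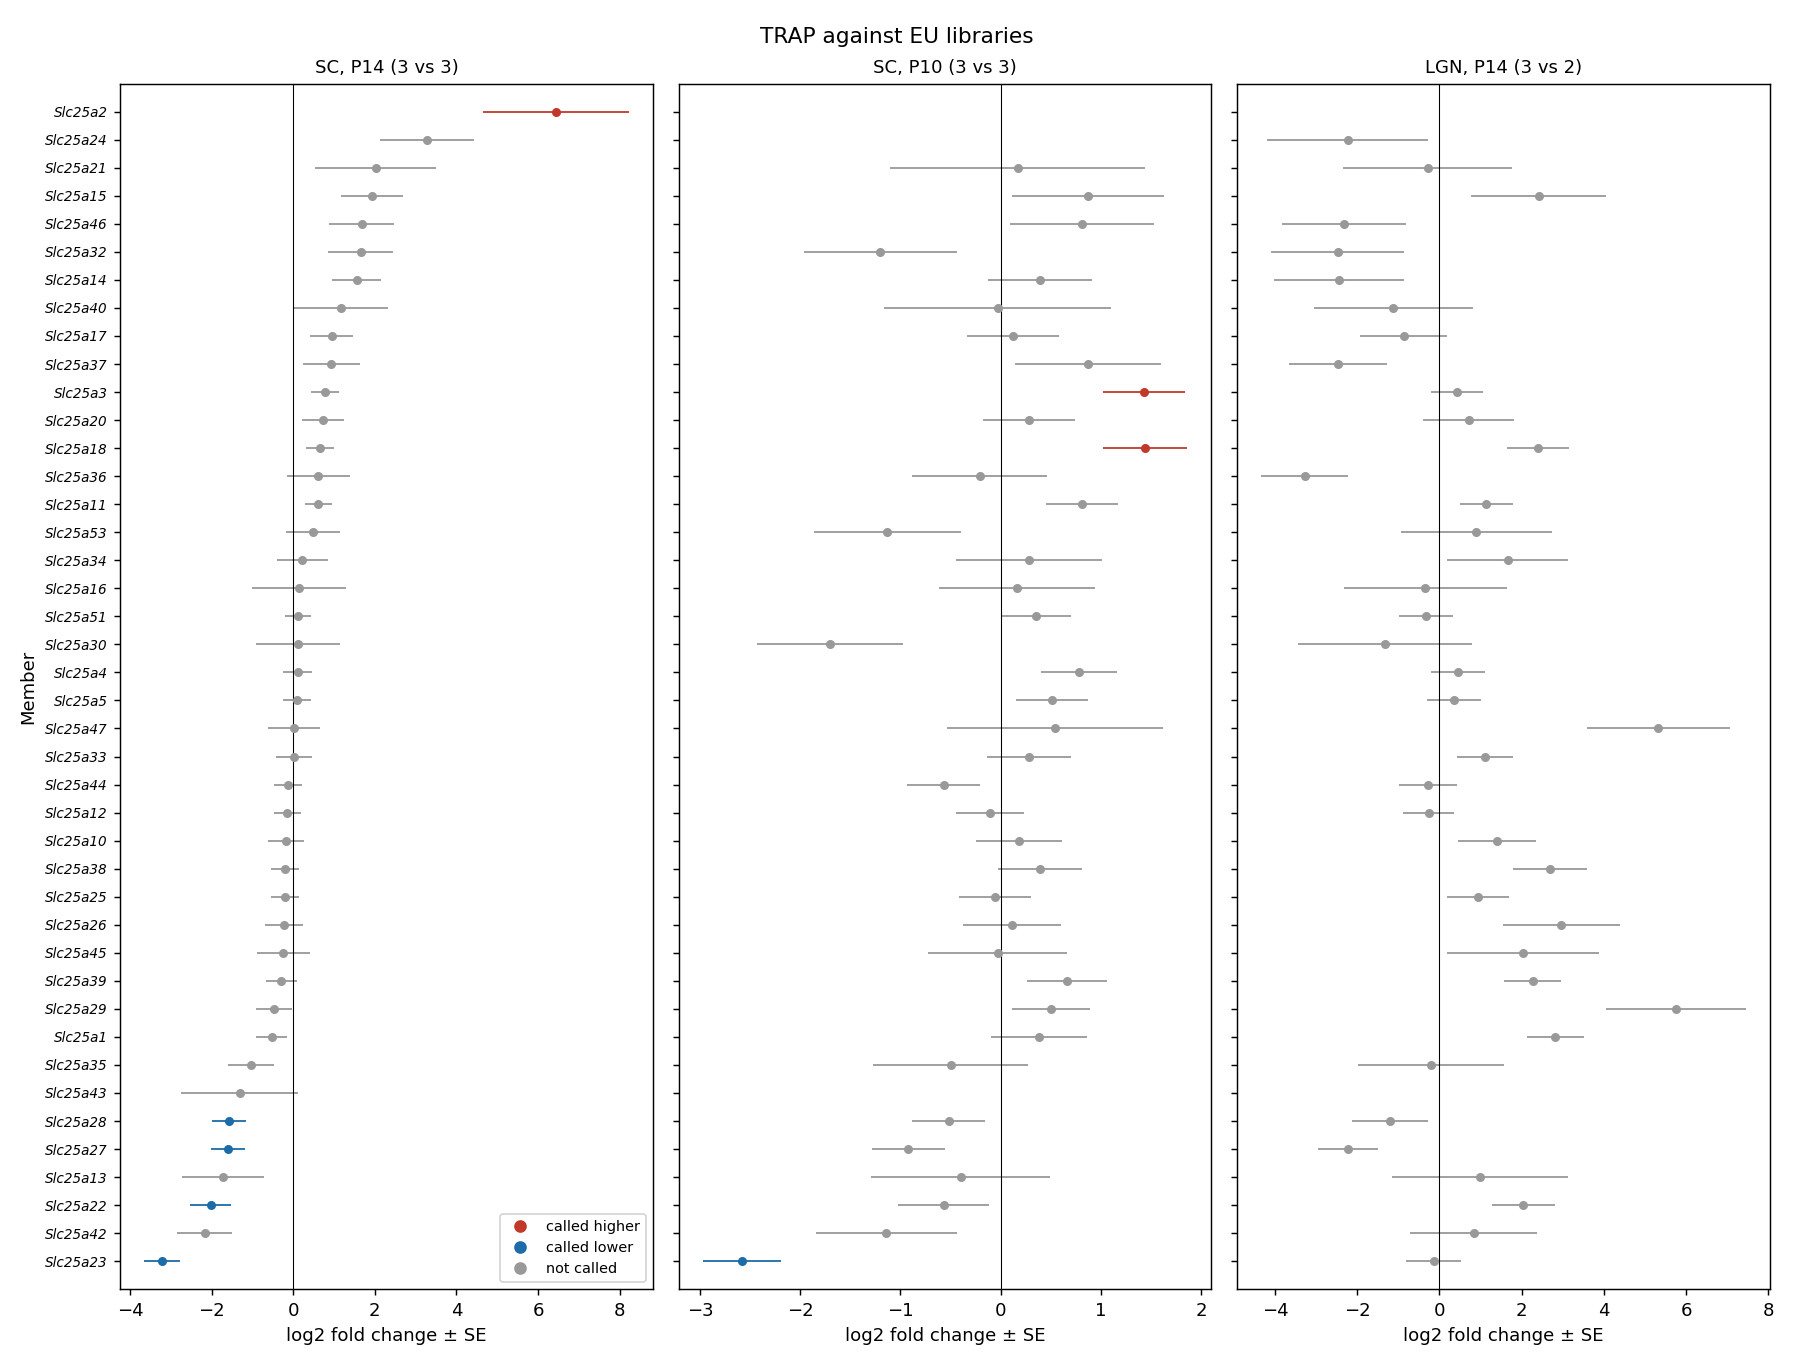
Log2 fold change (points) with its SE (bars) of TRAP against EU libraries in SC at P14, SC at P10 and LGN at P14, for members tested in these comparisons, each panel on its own axis. Slc25a23, in the bottom row, is at -3.21 and -2.58 in SC and -0.14 in LGN.

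The other calls at P14 were less stable. Slc25a22 had 9.0, 28.5 and 32.8 CPM in TRAP and 74.8, 83.7 and 127.0 CPM in EU libraries (log2 fold change -2.02 ± 0.50, edgeR adjusted p = 0.023). Slc25a28 had 13.1, 28.8 and 29.1 CPM against 63.8, 68.0 and 80.8 CPM (-1.58 ± 0.41, edgeR adjusted p = 0.028). The uncoupling-type carrier Slc25a27 had 13.1, 13.7 and 18.1 CPM against 29.4, 52.7 and 54.0 CPM (-1.60 ± 0.42, edgeR adjusted p = 0.031). In each case the groups did not overlap, as for 37.2% of all genes, and the calls were lost in 5 to 6 of 13 alternatives. Slc25a2, an ornithine carrier gene, had 0.369, 0.434 and 0.526 CPM in TRAP and 0 in the 3 EU libraries, at least 9.05-fold higher against the floor of 3 counts over the group. Its call was lost in 8 of 12 alternatives, and P14 EU replicate 2, outside this comparison, had 0.811 TPM. Gm37013 and Gm37388 overlap it on the other strand, so reads there cannot be told apart.

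At P10 Slc25a3 had 789.6, 1406 and 1900 CPM in TRAP and 424.2, 515.9 and 575.2 CPM in EU libraries (log2 fold change 1.43 ± 0.41, edgeR adjusted p = 0.038). Slc25a18 had 185.7, 194.6 and 442.3 CPM against 84.0, 100.9 and 117.5 CPM (1.44 ± 0.42, edgeR adjusted p = 0.038). Both were above the EU group in every TRAP library, and groups did not overlap for 38.9% of all genes. Both calls were lost in 7 of 12 alternatives, among them limma on TPM and the fits without P10 EU replicate 1, 2 or 3 or P10 TRAP replicate 3. Of 9 astrocyte markers, 1 was called higher in TRAP at P10 and 0 at P14. Their sum was 980 to 1469 TPM in P10 TRAP and 927 to 1872 TPM in P10 EU libraries, and their part in the Slc25a18 difference was not tested. At P14 Slc25a3 had 722.4, 997.4 and 1115 CPM in TRAP and 529.6, 551.1 and 583.6 CPM in EU libraries, which did not pass the test (0.77 ± 0.34, edgeR adjusted p = 0.15). No member passed the test of the change in ratio between ages (0 of 44 beside 0% of genes, 4 with an unadjusted p under 0.05, 0 by DESeq2).

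At P14 leaving out any single library changed the count of calls. The number of members called was 1 without EU replicate 3 or 4 or TRAP replicate 3, 4 or 5, and 12 without EU replicate 5. With all 5 libraries of each group it was 2. On TPM, limma called 2 higher and 5 lower at a pseudocount of 1 and 3 higher and 5 lower at 0.1. At P10 it called 0 higher and 2 lower with either pseudocount.

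Other mitochondrial transport genes were read from lists of 41 genes outside the Slc25a symbols, namely porins, pyruvate carrier subunits, the calcium uniporter, import machinery, sideroflexins, other carrier-fold genes and regulators of mitochondrial number. At P14, 9 of 40 tested were called higher in TRAP and 1 lower, beside 5.73% and 8.64% of all genes. At P10, 9 of 39 were called higher and 1 lower, beside 6.38% and 11.1% of all genes. Higher at both ages were the porins Vdac2 and Vdac3, both subunits of the pyruvate carrier (Mpc1 and Mpc2), the import receptors Tomm20 and Tomm22, and Mtch2. Mpc1 had 347.4, 362.6 and 573.6 CPM in TRAP and 74.5, 110.8 and 119.0 CPM in EU libraries at P14 (log2 fold change 2.08 ± 0.37, edgeR adjusted p = 0.0076). Vdac2 had 232.8, 251.7 and 284.3 CPM against 41.0, 71.3 and 82.7 CPM (1.98 ± 0.36, edgeR adjusted p = 0.0088). Tomm22 had 138.1, 160.2 and 169.6 CPM against 37.2, 41.3 and 57.0 CPM (1.79 ± 0.34, edgeR adjusted p = 0.0098). Ppargc1b, a coactivator of mitochondrial genes, was lower at both ages, with 11.6, 11.9 and 18.4 CPM in TRAP and 62.2, 84.4 and 119.9 CPM in EU libraries at P14 (-2.67 ± 0.41, edgeR adjusted p = 0.0048). SC EU replicates 1 and 2 of P14 were outside these fits. Scaled with LGN libraries, they had 326.2 and 173 CPM of Vdac2, 308.4 and 267.2 of Mpc1 and 81.8 and 113 of Tomm22. For TRAP against EU in LGN 0 of 40 were called, beside 1.4% of all genes. Log2 fold changes there were -0.10 for Vdac2, -0.34 for Vdac3 and -1.35 for Mtch2. Tomm20 was at 0.62, Tomm22 at 2.07, Mpc1 at 2.17 and Mpc2 at 2.43.

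Some of these genes were lower in SC EU than in immunopanned EU libraries, a comparison that shares the P14 SC EU libraries with the TRAP one. Vdac2 had a log2 fold change of -3.01 ± 0.52 (edgeR adjusted p = 0.0063), Vdac3 -4.71 ± 0.86 (0.0075), Tomm20 -2.41 ± 0.46 (0.0091), Tomm22 -2.29 ± 0.56 (0.021), Tomm70a -3.83 ± 0.73 (0.009), Mpc2 -2.07 ± 0.64 (0.046) and Mtch2 -2.24 ± 0.59 (0.025). Mtch1 (2.83), the import kinase Agk (3.90) and the sideroflexin Sfxn5 (2.86) were higher, so 3 of 38 tested were called higher and 7 lower, beside 11% and 11.4% of all genes. In TPM all 10 kept their direction, with Mpc2 at -0.84 and Tomm22 at -0.95 on the log2(TPM + 1) scale.

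**Figure D4:**
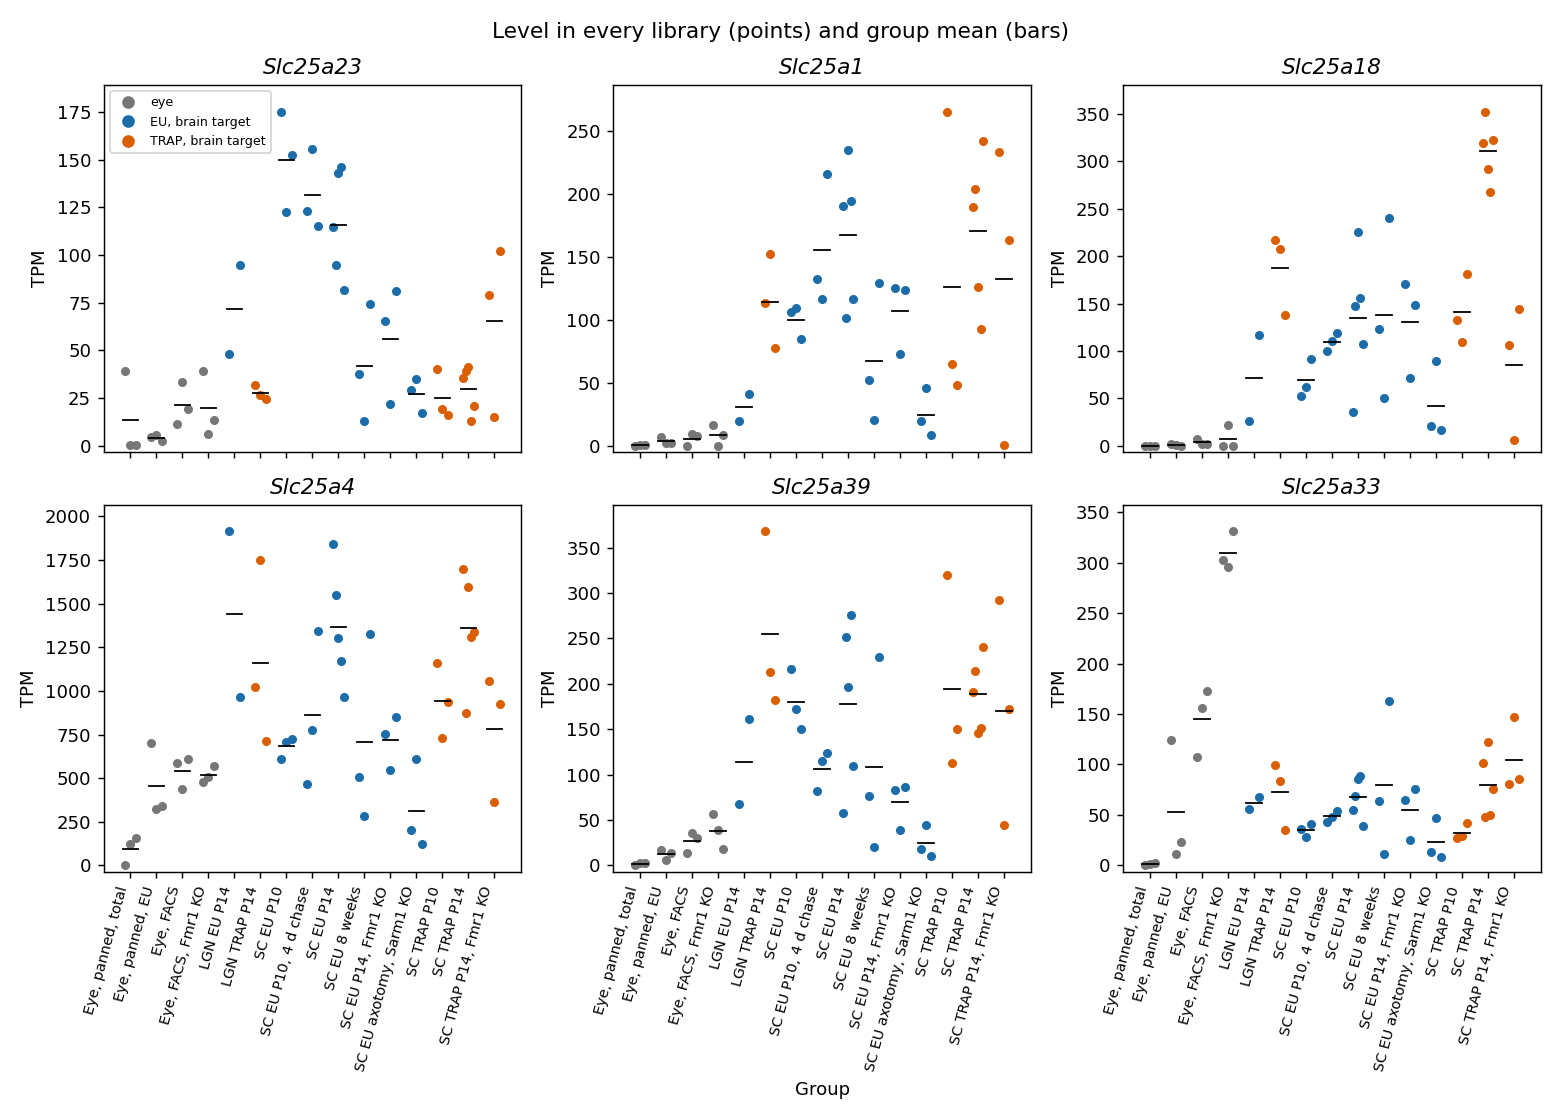
TPM of 6 members in every library (points) with the group mean (black bars), for 4 eye groups (grey), 7 EU groups (blue) and 4 TRAP groups (orange) of the brain targets. Slc25a23 is at 81.6 to 146.0 TPM in P14 SC EU libraries and 13.1 to 41.5 TPM in P14 SC TRAP libraries, and Slc25a1 and Slc25a18 lie near 0 in most eye libraries.

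Axotomized sarm1ko libraries with a 7-day chase were compared with wild-type P14 SC EU libraries (3 against replicates 3 to 5), which concerns labelled RNA left in cut axons. Sarm1 is known to drive the degeneration of cut axons. Genotype, axotomy, chase and, through the chase, age at collection differ together and cannot be told apart. Of 40 members tested, 17 were called lower and 2 higher, 47.5% of members beside 37.6% of all genes (20.8% lower and 16.8% higher). The median log2 fold change was -0.93 over members and 0.16 over all genes. Citrate, dicarboxylate and oxoglutarate carriers were all lower (3 of 3 tested: Slc25a1, Slc25a10 and Slc25a11). Also lower were 5 of 9 carriers listed for amino acids or carnitine and 4 of 6 for adenine nucleotides and phosphate. Of those listed for cofactors, other nucleotides or metals, 4 of 12 were lower.

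Slc25a22 had 3.28, 7.59 and 8.68 CPM in sarm1ko and 51.5, 59.0 and 90.0 CPM in wild-type libraries (log2 fold change -3.35 ± 0.45, edgeR adjusted p = 0.0018). Slc25a1 had 19.7, 27.8 and 36.4 CPM against 98.6, 176.9 and 188.6 CPM (-2.47 ± 0.37, edgeR adjusted p = 0.0022). Slc25a39 had 24.2, 25.7 and 31.5 CPM against 88.6, 154.4 and 230.8 CPM (-2.54 ± 0.38, edgeR adjusted p = 0.0023). In each of the 3 the sarm1ko libraries lay below all wild-type ones.

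Slc25a23 had 46.7, 57.6 and 59.9 CPM in sarm1ko and 132.6, 185.7 and 260.3 CPM in wild-type libraries (log2 fold change -1.82 ± 0.33, edgeR adjusted p = 0.0037). The dicarboxylate carrier Slc25a10 had 3.28, 5.23 and 5.77 CPM against 18.3, 19.95 and 27.1 CPM (-2.19 ± 0.44, edgeR adjusted p = 0.0053). The translocases fell as well, Slc25a4 from 974.1, 1249 and 1264 CPM to 339.2, 340.3 and 587.7 CPM (-1.46 ± 0.33, edgeR adjusted p = 0.0088) and Slc25a5 from 367.1, 537.5 and 652.7 CPM to 98.9, 148.8 and 240.6 CPM (-1.67 ± 0.38, edgeR adjusted p = 0.0089). Slc25a3 had 217.3, 229.4 and 298.8 CPM against 365.1, 390.9 and 411.5 CPM and did not pass (-0.65 ± 0.27, edgeR adjusted p = 0.085).

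Other lower members were Slc25a34 (-3.21), the basic amino acid carrier Slc25a29 (-2.48), the glycine carrier Slc25a38 (-1.57), Slc25a18 (-1.55), Slc25a33 (-1.19), Slc25a12 (-1.09), the calcium-stimulated carrier Slc25a25 (-0.99), Slc25a11 (-0.97) and Slc25a28 (-0.97). Of these, all but Slc25a33 had no overlap between groups. Over all tested members 28 of 40 had none, beside 57.8% of all genes. The 2 higher members were scarce. The folate carrier Slc25a32 had 12.7, 14.9 and 17.3 CPM in sarm1ko and 0.566, 1.85 and 4.29 CPM in wild-type libraries (2.74 ± 0.70, edgeR adjusted p = 0.013). The kidney-type carrier Slc25a30 had 7.75, 11.2 and 11.2 CPM against 0.166, 2.20 and 3.23 CPM (2.42 ± 0.86, edgeR adjusted p = 0.048). Wild-type P14 SC EU replicates 1 and 2 were outside this comparison. Scaled with LGN libraries, they had 34.3 and 21.1 CPM of Slc25a32 and 60.7 and 9.16 CPM of Slc25a30.

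The count of calls depended on the wild-type libraries. With all 5 P14 EU libraries 1 member was called, Slc25a1 (-2.04, edgeR adjusted p just under the threshold), while Slc25a22 was at -2.78 (0.061), Slc25a4 at -1.33 (0.057) and Slc25a23 at -1.38 (0.12). Replicates 1 and 2 carry another series of title codes and the lowest totals, 2558141 and 6034159 counts. Among the 3 against 3, 11 members were called without wild-type replicate 3, 9 without sarm1ko replicate 1 and 8 without sarm1ko replicate 3. On TPM, limma called 0 higher and 17 lower. Mitochondrially encoded genes made 13.1% to 31.4% of counts in sarm1ko and 0.407% to 1.76% in those wild-type libraries, and CT010467.1 27.4% to 48.5% and 4.54% to 33.7%. Astrocyte markers summed to 506 to 1719 TPM against 1936 to 3472 TPM over the 5 wild-type libraries, with 2 of 9 called lower, and retinal ganglion cell markers to 95.8 to 322.2 TPM against 315.3 to 1158 TPM, with 2 of 8 tested called lower. Their part in the carrier differences was not tested.

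Among the other transport genes, 15 of 39 tested were called lower in sarm1ko libraries and 4 higher, beside 20.8% and 16.8% of all genes. Of 5 small Tim genes listed, whose products escort carriers through the intermembrane space, 3 were called lower: Timm13 and Timm10b at -2.71 each and Timm10 at -2.37. Timm9 (-0.91, edgeR adjusted p = 0.056) and Timm8b (-0.93, edgeR adjusted p = 0.24) did not pass. Also lower were the inner membrane carrier translocase Timm22 (-0.91) and the channel Tomm40 (-1.81). Higher were Ppargc1a (3.26), Micu2 (2.68), Tomm70a (1.85), an import receptor for carriers, and Vdac3 (1.82). On the log2(TPM + 1) scale, where the median of all genes was -0.34 against 0.15 in normalised counts, these were 2.16, 1.44, 0.64 and 1.41, and Timm22 was at -2.15. The TPM ranges of Tomm70a (1.60 to 3.20 in sarm1ko and 0.778 to 2.07 in wild type) and of Vdac3 (22.0 to 138.4 and 6.68 to 42.6) overlapped.

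The next comparisons are between ages. In SC EU libraries 0 of 41 members were called between P14 and P10 (beside 2.03% of all genes, 0.91% higher and 1.12% lower). An unadjusted edgeR p under 0.05 was reached by 9 members, beside 2982 of 16262 genes, and DESeq2 called 1 member. The smallest adjusted p was that of Slc25a18, with 154.8, 230.4 and 292.0 CPM at P14 and 78.3, 98.1 and 115.9 CPM at P10 (log2 fold change 1.21 ± 0.32, edgeR adjusted p = 0.074), and 6 members were called without P14 replicate 5. The astrocyte sum was 927 to 1872 TPM at P10 and 1936 to 3472 TPM over all 5 libraries of P14. Its markers did not move alike between the ages. Log2 fold changes were 1.59 for Aldoc, 1.48 for Gja1 and 1.35 for Gfap and Fgfr3. They were 0.19 for Slc1a2, 0.07 for Aqp4, -0.02 for Aldh1l1, -0.18 for S100b and -0.77 for Slc1a3. Oligodendrocyte markers ran from 1.56 (Mog) to 3.24 (Mobp). The part of either cell type was not tested. In TRAP libraries 0 of 44 were called (beside 0%), and 9 had groups with no overlap (beside 22% of all genes). An unadjusted edgeR p under 0.05 was reached by 2 members, beside 2275 of 15752 genes, and DESeq2 called 0 members. Between 8 weeks and P14 in EU libraries 0 of 41 were called (beside 0%). An unadjusted edgeR p under 0.05 was reached by 1 member, beside 1548 of 16942 genes, and DESeq2 called 0 members. Slc25a23 had 36.9, 53.7 and 143.7 CPM at 8 weeks and 174.8, 228.3 and 325.6 CPM at P14 (-1.64 ± 0.67, edgeR adjusted p = 0.51). Without 8-week replicate 3, whose Slc25a23 was the highest of its group, 8 members were called.

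After a 4-day chase from P10, 0 of 41 members were called against the unchased P10 libraries (beside 0.00597% of all genes). An unadjusted edgeR p under 0.05 was reached by 5 members, beside 3030 of 16746 genes, and DESeq2 called 2 members. Slc25a23 had 201.2, 227.9 and 289.0 CPM after the chase and 337.0, 344.9 and 470.2 CPM before it (log2 fold change -0.68 ± 0.28, edgeR adjusted p = 0.24), and Slc25a39 72.1, 112.0 and 122.5 CPM against 141.1, 193.3 and 239.9 CPM (-0.91 ± 0.31, edgeR adjusted p = 0.19). The groups did not overlap for either gene, as for 25.6% of all genes. Slc25a36, a pyrimidine nucleotide carrier, had 17.2, 37.6 and 60.9 CPM after the chase and 12.9, 13.7 and 16.9 CPM before it (1.41 ± 0.45, edgeR adjusted p = 0.18).

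SC and LGN were compared within the code series that holds both. The fits did not pair libraries that share a digit of the title code. Deviations of such pairs correlated at 0.32 and 0.32 in EU and 0.41 and 0.36 in TRAP libraries. For EU libraries (2 against 2) 0 of 39 members were called beside 0% of genes, and 12 had groups with no overlap beside 32.1% of all genes. An unadjusted edgeR p under 0.05 was reached by 2 members, beside 497 of 15448 genes, and DESeq2 called 0 members. Slc25a1 had 99.4 and 107.8 CPM in SC and 18.5 and 31.0 CPM in LGN (log2 fold change 2.06 ± 0.86, edgeR adjusted p = 1.0). For TRAP libraries (2 against 3) 0 of 42 were called beside 0% of genes. An unadjusted edgeR p under 0.05 was reached by 0 members, beside 412 of 15551 genes, and DESeq2 called 0 members. Slc25a22 had 56.4 and 57.0 CPM in SC and 107.2, 114.2 and 166.1 CPM in LGN (-1.19 ± 0.56, edgeR adjusted p = 1.0).

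Libraries labelled fmr1ko, for the gene of the RNA-binding protein FMRP, gave no called member in any of the 3 sample types. In SC EU libraries this was 0 of 38 (beside 1.11% of all genes, 0.816% higher and 0.29% lower). An unadjusted edgeR p under 0.05 was reached by 12 members, beside 3912 of 16546 genes, and DESeq2 called 7 members. Groups had no overlap for 14 members, beside 32.1% of all genes. Slc25a3 had 781.0, 856.6 and 893.3 CPM against the wild-type values of 466.2, 481.9 and 498.4 CPM, with no overlap (log2 fold change 0.81 ± 0.26, edgeR adjusted p = 0.11). Without wild-type replicate 5, 9 members were called. In SC TRAP libraries 0 of 44 members were called (beside 0%). An unadjusted edgeR p under 0.05 was reached by 8 members, beside 2879 of 16115 genes, and DESeq2 called 6 members. There the citrin gene Slc25a13 was at 0 in all 3 fmr1ko libraries and at 0.970, 1.079 and 2.45 CPM in wild type, at least 48.2-fold lower against the floor of 3 counts over the group (edgeR adjusted p = 0.064). Without fmr1ko TRAP replicate 2, 7 members were called, and that library had 0.271 TPM of Slc25a1 against 163.9 and 233.7 TPM in the others.

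In FACS-sorted eye cells 0 of 38 members were called (beside 0.0593% of all genes). An unadjusted edgeR p under 0.05 was reached by 6 members, beside 1932 of 15165 genes, and DESeq2 called 2 members. Slc25a33 had 449.0, 476.4 and 476.6 CPM under the fmr1ko label and 128.3, 156.6 and 246.9 CPM in wild type, with no overlap (log2 fold change 1.40 ± 0.28, edgeR adjusted p = 0.11). Gm13068 overlaps Slc25a33 on the other strand and averaged 52.5 TPM in eye libraries, so reads in the overlap cannot be told apart. Slc25a13 was at 0 in all 3 fmr1ko libraries here too, against 0.314, 2.57 and 2.75 CPM in wild type, at least 52.2-fold lower against the same floor over the group (edgeR adjusted p = 0.13). In SC EU libraries it was detected in all 3 fmr1ko libraries, at 0.972, 1.061 and 1.228 CPM against 1.055, 2.053 and 8.413 CPM in wild type, and the groups overlapped. Rod markers summed to 53491 to 62195 TPM in the fmr1ko and 56614 to 96570 TPM in the wild-type libraries.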

How the data were processed

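The authors used Salmon and the mm10 build, per the submitters' processing notes. Not given in the sources used here: versions, annotation release, strand setting. The authors deposited estimated counts per Ensembl gene and TPM; symbols came from GENCODE M21 (GRCm38). Counts were rounded, filtered with filterByExpr and scaled by TMM, and each of 14 comparisons, plus 1 interaction, was fitted with the quasi-likelihood F test of edgeR 4.0.16 in R 4.3.3. P-values were adjusted by Benjamini and Hochberg over all tested genes, with calls at an adjusted p under 0.05, and SEs come from the F statistic. Replicates 3 to 5 of the wild-type P14 SC groups were used, except between SC and LGN (replicates 1 and 2). Alternatives were RLE factors, no filter, DESeq2 1.42.0, limma 3.58.1 on log2(TPM + 1) and log2(TPM + 0.1), each library left out, all 5 P14 libraries and a replicate block. The procedure was tested on simulated data. Members, lists and the naming rule were chosen with earlier results of these data known. The rule gives per-library values for members called in the soma and TRAP comparisons, up to 6 called members per other comparison and each role's most abundant member. The labels do not say whether libraries of a group are separate animals. P-values thus reflect only how these libraries vary, which may be technical. Floors cover counting error only. No 2 libraries held identical values. Values of 1 member are not reported here; counts over the family include it.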

Additional observations from a re-analysis of the deposited data

Results flagged for a closer look

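Over 80 sets of 5 values (members and the family sum, in the 2 wild-type P14 SC groups, at 1 TPM or more), 5 held a library whose gap to the nearest of the others was large for the range by Dixon's ratio; chance alone marks about 1 in 20 sets. In SC EU libraries replicate 1, which has the lowest total of the series (2558141 counts), was the highest for 4 scarce members: Slc25a15 at 15.6 TPM (others 0.379 to 4.47), Slc25a30 at 30.8 TPM (others 0.0751 to 4.03), Slc25a32 at 28.0 TPM (others 0.149 to 5.51) and Slc25a40 at 11.2 TPM (others 0.101 to 1.27). In SC TRAP libraries Slc25a27 was high in replicate 1, at 17.1 TPM against 5.50 to 8.72. These replicates enter only the comparison of SC with LGN and the fits with all 5 libraries.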

How the results depend on the processing

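Of 431 refits of the 34 called member results, 319 kept the call, 112 lost it and 0 changed direction. Of 95 recounts of called members other than those leaving out a library, 74 stayed within 1.5 times the reported count. The others were as follows. With no filter there were 6 members called in TRAP against EU in LGN, 2 in EU between P14 and P10, 1 after the chase and 4 in fmr1ko EU. With DESeq2 there were 9, 1, 2 and 7 in the same comparisons, and 6 in fmr1ko TRAP and 2 in fmr1ko FACS. With limma on log2(TPM + 1) and log2(TPM + 0.1) there were 12 and 11 in SC against immunopanned EU, and 3 and 1 in TRAP against EU in LGN; with the smaller pseudocount there were 8 in TRAP against EU at P14 and 2 in fmr1ko TRAP. With all 5 P14 libraries there were 2 in TRAP against EU at P14, 1 in sarm1ko and 2 in fmr1ko TRAP. The cause was not tested. Shares of all genes called in these alternatives are not given here.

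With each library left out, the counts ran from 3 to 12 (SC against immunopanned EU), 1 to 12 (TRAP against EU at P14), 1 to 3 (the same at P10), 8 to 26 (sarm1ko), 0 to 6 (EU, P14 against P10), 0 to 8 (8 weeks against P14), 0 to 9 (fmr1ko EU) and 0 to 7 (fmr1ko TRAP), and stayed at 0 in the other 7 tests. Digits of the title codes are shared between groups (the last digit, or the first in the series that hold LGN). The labels do not say what they mark. Same-digit libraries did not deviate together throughout any comparison with 3 pairs (correlations of -0.58 to 0.22); SC and LGN had 2 pairs each, at 0.32 and 0.32 in EU and 0.41 and 0.36 in TRAP. With the digit as a replicate block, 1 member was called in TRAP against EU at P10 and 1 in LGN. Depth limits the 7 members below 1 TPM, most of which were not tested.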
